A study of Mus musculus with 46 samples.

Results

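Promoter and distal H3K4me3 were compared between mouse embryonic fibroblasts at D0 and the same kind of culture 3 days into reprogramming (D3). The comparison used 2 H3K4me3 ChIP-Seq libraries of the 46 samples in the series, 1 per day, with 40945 placed peaks in D0 and 28834 in D3. Peaks were taken from the lists that were deposited for these libraries, and each was called against the input of its own day. The series follows H3.3, H3K4me3 and H3K36me3 while fibroblasts are turned into induced pluripotent stem cells (iPSCs). The fibroblasts (MEFs) came from E13.5 embryos carrying an IRES-EGFP cassette at the Oct4 locus, so D0 and D3 share that allele. Reprogramming used pMXs retroviruses for Oct4, Sox2, Klf4 and c-Myc (OSKM), and the D3 cells were collected without sorting. The labels do not say whether the D0 cells had met virus. Per the labels, fibroblasts were kept in a serum medium and reprogramming was done in a feeder-free medium, so the factors, the medium and the time in culture cannot be told apart. There was no replicate of either day, and no difference given here has a replicate check. In such mixed cultures, fewer cells carrying the mark and less mark per cell cannot be told apart.

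H3K4me3 is placed on nucleosomes around transcription start sites by the SET1 and MLL methyltransferase complexes, and it marks active promoters and those poised for activity. CpG-rich promoters tend to carry the mark in most cell types, whereas CpG-poor promoters carry it where the gene is used. Weak H3K4me3 is also found away from annotated promoters, at enhancers and at alternative starts. In fibroblast reprogramming, early events include the silencing of mesenchymal genes and the start of an epithelial programme.

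For a view of the DNA under some lost and gained marks, 5 promoters and 2 distal regions are printed from the mm9 genome. They were picked because they hold the letters marked. Each is 300 bases long and read 5′ to 3′. Ifit3, Ifit1 and Isg15, interferon-induced antiviral genes, had promoter H3K4me3 in D0 only. At Isg15 a D3 peak lay in the same stretch of overlapping peaks, more than 1 kb from its start, as given below. For these 3 genes the capitals mark GAAA, any 2 bases and GAAA again, or the reverse complement, the letters read by interferon regulatory factors. Adh7, an alcohol dehydrogenase that oxidises retinol, and Msln, the cell-surface glycoprotein mesothelin, had it in D3 only, and the capitals mark TGANTCA, the AP-1 letters. Promoters run from 270 bases before the start to 30 bases of the transcript, on the strand of the gene. The distal D0 region lay 95.2 kb from the start of Thy1 and its capitals mark the AP-1 letters. The distal D3 region lay 20.8 kb from the start of Gm9775. Its capitals mark ATGCAAA or its reverse complement, the first 7 letters of the octamer bound by POU factors such as Oct4. The full octamer is longer by a base, which the printed stretch lacks. Both distal regions were intergenic and are printed on the plus strand.
Ifit3, chr19:34657751-34658050, plus strand: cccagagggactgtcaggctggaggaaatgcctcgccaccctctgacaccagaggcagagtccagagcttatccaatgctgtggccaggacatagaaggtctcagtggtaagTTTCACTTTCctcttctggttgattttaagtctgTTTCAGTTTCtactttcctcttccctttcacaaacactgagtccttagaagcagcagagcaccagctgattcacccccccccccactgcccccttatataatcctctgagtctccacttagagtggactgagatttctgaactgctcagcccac
Ifit1, chr19:34715091-34715390, plus strand: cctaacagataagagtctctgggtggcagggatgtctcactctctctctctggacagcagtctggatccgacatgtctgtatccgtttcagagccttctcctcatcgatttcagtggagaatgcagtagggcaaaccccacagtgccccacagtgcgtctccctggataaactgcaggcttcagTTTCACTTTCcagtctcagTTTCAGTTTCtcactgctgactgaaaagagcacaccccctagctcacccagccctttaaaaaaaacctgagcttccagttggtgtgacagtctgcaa
Isg15, chr4:155574898-155575197, minus strand: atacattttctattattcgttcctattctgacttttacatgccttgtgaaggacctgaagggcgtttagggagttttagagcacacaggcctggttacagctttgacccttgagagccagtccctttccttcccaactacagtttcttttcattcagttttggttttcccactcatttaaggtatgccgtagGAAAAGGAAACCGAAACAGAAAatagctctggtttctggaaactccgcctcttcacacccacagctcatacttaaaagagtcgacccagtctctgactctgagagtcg
Adh7, chr3:137880517-137880816, plus strand: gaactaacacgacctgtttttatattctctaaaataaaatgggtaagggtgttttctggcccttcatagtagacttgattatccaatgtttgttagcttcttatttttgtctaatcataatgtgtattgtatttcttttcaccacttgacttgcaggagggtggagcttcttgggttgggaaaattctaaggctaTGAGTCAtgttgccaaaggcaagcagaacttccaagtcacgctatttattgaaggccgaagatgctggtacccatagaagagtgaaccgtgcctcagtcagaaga
Msln, chr17:25891243-25891542, minus strand: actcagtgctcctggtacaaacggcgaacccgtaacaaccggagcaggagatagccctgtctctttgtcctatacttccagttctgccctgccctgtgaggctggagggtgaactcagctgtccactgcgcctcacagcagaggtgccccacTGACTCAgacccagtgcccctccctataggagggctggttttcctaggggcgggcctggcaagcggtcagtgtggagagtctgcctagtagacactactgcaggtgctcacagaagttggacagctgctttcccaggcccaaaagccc
D0-only region on the side of Thy1, chr9:43753402-43753701: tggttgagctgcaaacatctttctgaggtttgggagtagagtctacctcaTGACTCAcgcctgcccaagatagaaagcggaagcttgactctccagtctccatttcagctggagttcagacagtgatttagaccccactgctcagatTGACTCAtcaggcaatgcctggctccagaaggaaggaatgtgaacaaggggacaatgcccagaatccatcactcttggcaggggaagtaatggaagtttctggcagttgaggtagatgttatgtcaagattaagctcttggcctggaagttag
D3-only region on the side of Gm9775, chr9:88774006-88774305: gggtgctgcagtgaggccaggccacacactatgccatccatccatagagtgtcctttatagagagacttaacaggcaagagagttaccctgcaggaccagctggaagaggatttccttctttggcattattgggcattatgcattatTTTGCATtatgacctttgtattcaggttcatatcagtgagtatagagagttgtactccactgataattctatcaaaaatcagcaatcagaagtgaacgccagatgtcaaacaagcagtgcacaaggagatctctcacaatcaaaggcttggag
The Ifit3 and Ifit1 promoters held 2 matches each, and the Isg15 promoter held 3 that overlap one another. Adh7 and Msln held 1 AP-1 match each. Other candidates often lacked these letters. AP-1 letters were in 3 of the 10 D3-only promoters named below, and interferon letters in 4 of 6 interferon-list promoters marked in D0 only. Of the distal peaks named below, AP-1 letters were in 1 of 4 scanned D0-only and in 3 of 5 D3-only peaks. The octamer letters were in 0 and 1 of them. The D0-only peak near Pcdhgc5 was left out of this count. A match to letters is a description of the sequence and not a binding site. Among the same 300-base windows of all 22367 genes, 3.86% held the interferon letters and 7.08% the AP-1 letters.

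Distal H3K4me3 turned over far more than promoter H3K4me3. A peak was called promoter where it touched the 1 kb on either side of the start of a protein-coding transcript, and distal otherwise. Of 14413 D0 promoter peaks, 703 had no overlapping D3 peak, a share of 4.88% (95% Wilson interval 4.54 to 5.24). Of 26532 D0 distal peaks, 16665 had none, a share of 62.8% (62.2 to 63.4). Gains were fewer in both classes. Among 14025 D3 promoter peaks 282 had no D0 partner, or 2.01% (1.79 to 2.26), and among 14809 D3 distal peaks 4497 had none, or 30.4% (29.6 to 31.1). These intervals cover counting error only. Peaks over promoters thus made up 35.2% of the D0 list and 48.6% of the D3 list.

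The libraries were of similar depth, with 29.2 and 29.7 M tags, but 30.4% of D0 tags and 22.9% of D3 tags lay in peaks. Peak scores are tags per 10 M, so 1 tag was worth 0.342 in D0 and 0.337 in D3. When only the 28834 highest-scoring peaks of each library were kept, 2.45% of D0 promoter peaks and 41.9% of D0 distal peaks were without a partner. In the other direction the shares were 2.88% and 38.0%. Equal numbers of peaks in both lists set the losses and gains close to each other by construction, while the contrast between promoter and distal peaks remained. The part of the lower share of tags in peaks in the losses was not tested.

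Most peaks without a partner were weak. The median score was 8.21 for distal D0 peaks without a partner against 26.2 for those with one, and 9.41 against 157 for promoter peaks. Distal peaks gained in D3 had a median score of 7.08 and gained promoter peaks one of 7.84. At matched scores of 20 to 50, 9.78% of 1217 D0 promoter peaks and 27.3% of 5249 D0 distal peaks had no D3 partner. For D3 peaks of the same scores the shares were 1.25% of 1518 and 3.56% of 3034. Promoter peaks were the more stable at each range of D0 scores up to 100. At scores of 200 or more, 0 of 4702 D0 promoter peaks were without a partner, which allows a share of up to 0.0638%, and 0 of 209 distal peaks, which allows up to 1.44%.

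**Figure D1:**
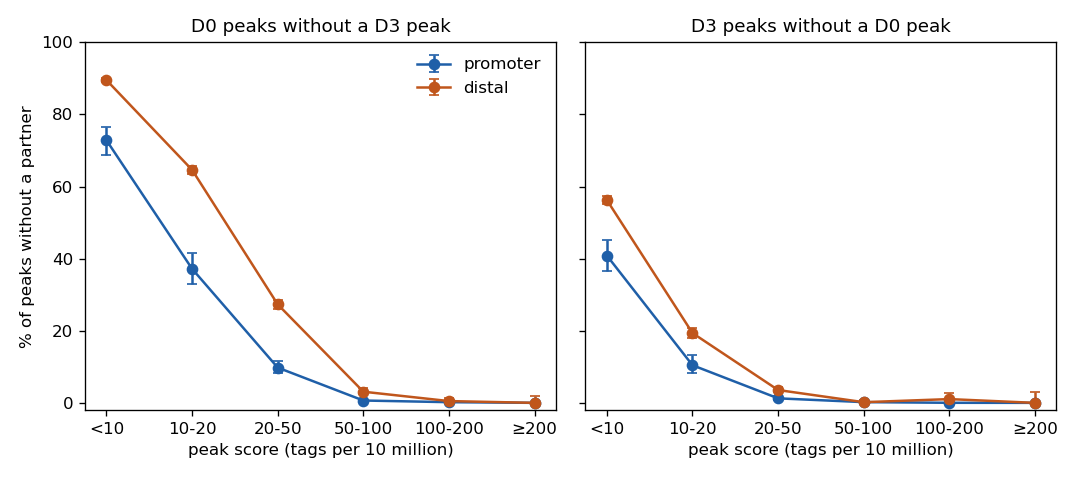
Percent of D0 peaks without an overlapping D3 peak (left) and of D3 peaks without an overlapping D0 peak (right), by peak score in tags per 10 M, for promoter and distal peaks; bars are 95% Wilson intervals. In D0 the shares fall with score, from 89.5% of distal peaks under a score of 10 to 0 at 200 or more, and distal peaks lie above promoter peaks up to a score of 50 in both panels.

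Within the distal class the losses differed by place, and the places were not matched for peak score. Among D0 peaks with a partner, the median score was 46.9 at starts of other transcripts and 22.4 in gene bodies. Gene bodies lost the most, with 72.7% of 10135 D0 peaks without a partner, and peaks at starts of other transcripts, such as noncoding RNAs, lost the fewest, with 40.0% of 1835. Flanks within 5 kb of a promoter lost 59.9% of 3125 peaks and intergenic DNA lost 58.5% of 11437. The gains in D3 had a similar order, with 40.7% in gene bodies, 741 of 2246 in flanks, 24.1% in intergenic DNA and 19.1% at other starts. The covered distal sequence went from 26.3 to 14.6 Mb, and the covered promoter sequence from 41.6 to 36.4 Mb.

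Where H3K4me3 was kept, its level was lower at distal regions as well. Because a peak in one library can be split into several in the other, overlapping D0 and D3 peaks were joined into common regions and their scores summed. The 13692 promoter regions present in both libraries had a median log2 change of -0.31 (quartiles -0.50 and -0.15). The 9688 distal regions had one of -0.47 (quartiles -0.86 and -0.14). A change of more than 2-fold beyond the promoter median was called a rise or a fall. By this measure 10.9% of distal and 2.38% of promoter regions fell, and 3.71% and 0.76% rose. Among regions with a D0 score of 20 to 50 the medians were -0.66 for distal and -0.41 for promoter regions, and at 200 or more they were -0.37 and -0.30. Of the promoter regions, 463 were split in D3 and 114 merged.

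At the level of genes, few promoters changed state. Of 22367 protein-coding genes, 14771 had promoter H3K4me3 in D0 and 14469 in D3, and 14324 had it in both. The mark was found in D0 only at 447 genes, 3.03% of those marked in D0. It was found in D3 only at 145 genes, 1.91% of those not marked in D0. These genes mostly had small peaks. The median score was 11.8 for D0-only genes, 28 of which reached 100, and 9.27 for D3-only genes, 5 of which did. The lowest placed peak scored 4.79 in D0 and 5.22 in D3, so a gene without a peak is below what the peak caller could report, not at zero. With equal numbers of top peaks there were 257 D0-only and 236 D3-only genes.

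State changes that also held with equal numbers of top peaks and with 1 kb of slack between peaks were found at 208 D0-only and 129 D3-only genes. Equal numbers shorten only the D0 list, so for the D3-only genes this rests on the slack alone. The 10 of these 129 genes with the highest D3 scores held no member of the pluripotency list. Scores of a gene are sums over its promoter peaks and grow with their length. Adh7, whose promoter is printed above, had no D0 peak and a D3 score of 116 over 4.88 kb, from 344 tags. Anxa8, a calcium-dependent membrane-binding annexin, had 104 over 3.02 kb, and Msln had 83.1 over 3.80 kb. These 3 were followed by Akr1c18, a steroid dehydrogenase that inactivates progesterone, at 54.3. Ceacam1, a cell adhesion molecule of epithelia, had 51.6. Bhlhe23, a basic helix-loop-helix transcription factor, had 39.4, and Arhgef33, of a family of guanine nucleotide exchange factors, had 37.2. The transmembrane serine proteases Tmprss5 and Tmprss11bnl had 33.9 and 28.3, and BC030476 had 26.0. Several of these genes scored higher in the D6T- library, from cells negative for the fibroblast surface protein Thy-1 on day 6. The scores were 332 for Adh7, 167 for Anxa8, 146 for Msln and 229 for Ceacam1. That library had 34.8% of its tags in peaks, beside 22.9% in D3. Of all genes marked in D0 and D3, 90.4% also scored higher in D6T- than in D3. In iPSCs, whose library had 12.7% of its tags in peaks, Adh7, Anxa8, Akr1c18 and Ceacam1 had no promoter peak and Msln had 9.47. Of these 10 genes, Bhlhe23 with 27.6 and BC030476 with 22.2 were the others marked in iPSCs.

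The 10 of the 208 D0-only genes with the highest D0 scores included several antiviral and immune genes. Samd9l, an interferon-induced antiviral gene, had a D0 score of 195 over 3.94 kb from 569 tags and no D3 peak. Ifit1, which binds viral RNA lacking cap methylation, shared a D0 peak of 153 with its neighbour 2010002M12Rik, and Ifit3, its partner protein, had 120. I830012O16Rik, next to Ifit3, had 104. These genes are near copies of one another, and since reads with more than 1 place in the genome were removed, their scores are uncertain. Il1rl1, the receptor of interleukin-33, had 118. Lgals3bp, a secreted galectin-binding glycoprotein, had 116. Glipr1, a secreted CAP-family protein, had 114. Evi2a and Evi2b, small genes inside an intron of Nf1, shared a peak of 108. Some of these genes had a promoter peak in later libraries, which were from sorted cells. The D6T- library had 34.8% of its tags in peaks and D9T- 23.8%, beside 22.9% in D3. A return of the mark cannot be told apart from these differences between libraries. Samd9l had 42.5 in D6T- and 76.0 in D9T-, and Glipr1 had 78.0 in D6T-, and Lgals3bp had 37.2 in D9T-, whereas Il1rl1, Ifit3, I830012O16Rik, Evi2a and Evi2b had no promoter peak in either. None of these 10 genes had a promoter peak in iPSCs.

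Among the 14324 genes marked in both libraries the change was small and mostly downward. Scores were lower in D3 at 90.4% of them, with a median log2 change of -0.30 (quartiles -0.49 and -0.15), beside a log2 ratio of -0.41 for the share of tags in peaks. Per kb of peak the median was -0.17. The peaks were also shorter in D3 at 71.1% of the genes, with a median of 2.82 kb in D0 and 2.55 kb in D3. A fall of more than 2-fold beyond this median was seen at 334 genes (2.33%) and such a rise at 106 (0.74%). By joined regions, a measure chosen after the data were seen, 249 genes fell (1.74%) and 81 rose (0.565%). By both measures 248 fell and 81 rose.

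Strong promoters were the 6668 genes whose lower sum reached the median of its library, 170.5 in D0 and 139.7 in D3. The largest falls among them were partly falls in peak length. Hoxa11, a limb patterning gene, went from 1551 to 211, a log2 change of -2.88 with a counting interval of -3.00 to -2.76. Its D0 peak spanned 30.5 kb of the HoxA cluster and was split in D3, and the joined region changed by -0.58. Cirbp, a cold-inducible RNA-binding protein, went from 1000 to 163 with -0.38 by joined region. The falls at Trappc3, Ppp4c and Gm10748 were also of split peaks, with joined-region changes of -0.48, -0.40 and -0.39. Falls that were also seen by joined region were found at Sema7a, a membrane-bound semaphorin (513 to 142, log2 -1.85), at Oaf (544 to 156, -1.80) and at Errfi1, a feedback inhibitor of EGF receptor signalling (476 to 144, -1.72, or -1.61 by joined region). These peaks were shorter in D3 as well, and per kb the changes were -0.21, -0.12 and -0.48, beside -0.17 for all genes.

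Further strong promoters that fell by both measures included those of the following genes. Inhbb, the inhibin beta B subunit, went from 501 to 161. Pdgfra, the receptor of platelet-derived growth factor on mesenchymal cells, went from 739 to 240. Grem1, a secreted BMP antagonist, went from 418 to 144. Pdpn, the mucin-like surface protein podoplanin, went from 485 to 180, and Irgm1, an interferon-induced GTPase, from 428 to 164. Per kb these 5 genes changed by -0.62 to -1.07. Changes upward were smaller. By the summed score the largest were at Matr3, a nuclear matrix protein (257 to 710), at Arpc5l, a subunit of the actin-nucleating Arp2/3 complex (254 to 617), at the cell death gene Bax (286 to 668), and at Rpl35, Ftl1 and Dnajc8. Their D3 peaks were longer, and by joined region Arpc5l and Rpl35 changed by -0.02, Bax and Ftl1 by -0.07, Dnajc8 by -0.31 and Matr3 by 0.39. Tmbim1 changed by 0.73 and by 0.45 by joined region. Ranked by the smaller of both measures, the first was Plxdc2 (253 to 380, 0.58), short of the limit for a rise, and below it came Robo2, an axon guidance receptor (197 to 275, 0.48), and Lgr4, an R-spondin receptor (185 to 255, 0.46). Pax6, an eye and brain regulator, went from 249 to 333 (0.42). The D3 peaks of these genes were longer, and per kb the changes were 0.28 at Plxdc2, -0.31 at Robo2, -0.01 at Lgr4 and Pax6 and -0.67 at Tmbim1.

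Fibroblast and mesenchymal genes lost H3K4me3 widely. All 46 genes of that list were marked in D0, and 44 were in both libraries with a median log2 change of -1.0, against -0.30 for all genes. The change was below the all-gene median at 40 of the 44, 16 fell (36.4%, against 2.33% of all genes) and 1 rose. The strongest changes were at matrix genes. Col6a3, a chain of collagen VI, went from 572 to 5.73 (log2 -6.64, or -5.62 by joined region). Lum and Dcn, small leucine-rich proteoglycans of the matrix, went from 151 to 9.78 and from 202 to 31.0. Bgn, a related proteoglycan, went from 250 to 17.9, and Postn, the matricellular protein periostin, from 48.8 to 5.56. Col1a1, the main chain of collagen I, went from 574 to 197 while its peak shortened from 15.2 to 3.65 kb, so that per kb it changed by 0.52. The median of the list per kb was -0.51, beside -0.17 for all genes. Mmp3, a matrix metalloproteinase, had 53.4 in D0 and Meox1, a homeobox factor, 26.9, and both had no D3 peak. The cell-surface marker Thy1 went from 192 to 56.6 (log2 -1.77). The regulators of the mesenchymal state differed among themselves. Snai1 went from 460 to 136 (-1.76), whereas Twist1 went from 594 to 451 (-0.40) and Zeb2 from 746 to 595 (-0.33), close to the all-gene median. Tcf21, a mesenchymal helix-loop-helix factor, was the member that rose, from 7.19 to 17.5.

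Contractile genes and targets of TGF-beta and Hippo signalling moved less. Of 17 contractile genes marked in both, 17 were below the all-gene median, with a median log2 change of -0.59, but only Tagln, the actin-binding protein transgelin, fell (81.0 to 20.6). Acta2, smooth muscle actin, went from 114 to 73.1 (-0.64). The 24 TGF-beta and Hippo target genes had a median of -0.59, or -0.53 by joined region, and 20 were below the all-gene median. Of the 24, 2 fell by the summed score and 0 by joined region.

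Interferon and antiviral genes had a median change like that of the fibroblast list, and every member marked in both libraries lay on the same side of the all-gene median. Of 35 genes, 32 were marked in D0 and 26 in both, with a median log2 change of -1.03. The change was below the all-gene median at 26 of 26, and 9 fell, or 8 by joined region, with 0 rising. Oasl2, an oligoadenylate synthetase-like gene, went from 182 to 37.2 (log2 -2.29). The RNA sensor gene Dhx58 went from 80.8 to 17.7 and the apoptosis-related Xaf1 from 150 to 33.9. Irf9, a subunit of the ISGF3 transcription factor, went from 144 to 33.2 (-2.11, counting interval -2.45 to -1.80). Usp18, which removes ISG15 from proteins, went from 307 to 85.8. The fall went with shorter called peaks. Fixed intervals were not measured, so a fall in length and a fall in level were not separated. The median peak length of the 26 genes went from 3.61 to 1.72 kb, peaks were shorter at 25 of them, and the median log2 change per kb was -0.24.

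A further 6 interferon genes were marked in D0 only, 18.8% of the 32 marked in D0 against the 3.03% of all genes. These were Ifit1, Ifit3, Isg15, the antiviral GTPase Mx2 (100 in D0), Ifi44 (93.1) and the nucleic acid sensor Zbp1 (48.3). Isg15, a ubiquitin-like protein, had 319 in D0, and although its promoter window held no D3 peak, a D3 peak lay in the same joined region, which changed by -1.16. The mark was found in D6T- at 5 of the 6, beside 40.5% of all D0-only genes, with 41.5 at Mx2, 26.2 at Zbp1, 15.2 at Isg15, 13.6 at Ifit1 and 8.21 at Ifi44, and no peak at Ifit3. Of the 26 genes marked in both, 25 scored higher in D6T- than in D3 (96.2%), beside 90.4% of all genes marked in both. In iPSCs 0 of the 6 were marked, beside 28.9% of all D0-only genes. The interferon letters, capitals in the Ifit3, Ifit1 and Isg15 promoters above, were found in 15 of the 35 promoters of the list (42.9%, interval 28.0 to 59.1). Most markers of white blood cells, another cell type the culture could hold, were not found. Of 16 such markers, 11 had no promoter peak in either library, beside 7451 of all 22367 genes. Among the 11 were Ptprc, Csf1r, Itgam, Cd68 and Lyz2. Itgb2 with 9.07 and Laptm5 with 6.50 were marked in D0 only, and Runx1, Cd14 and Tal1 were marked in both. The summed score of the list was 1016 in D0 and 709.8 in D3, of which Runx1 made 735 and 517. The part of such cells in the fall was not tested.

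**Figure D2:**
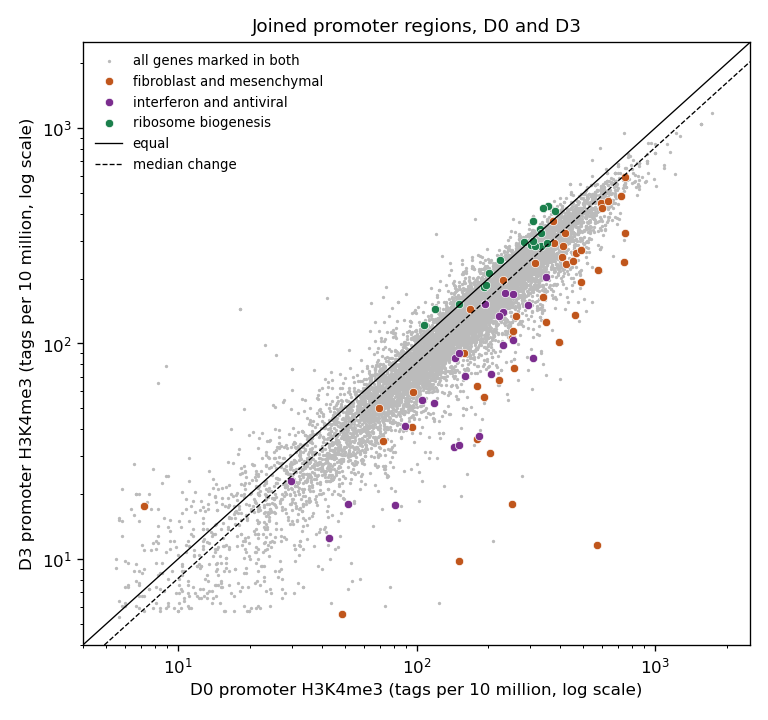
Promoter H3K4me3 of joined regions in D0 (horizontal) and D3 (vertical), in tags per 10 M on log axes, for the 14324 genes marked in both libraries (grey) and for members of the gene lists named in the legend; the solid line is equality and the dashed line the median log2 change of -0.30. Members of the fibroblast and interferon lists lie mostly under the dashed line, the lowest being Col6a3 with a log2 change of -5.62.

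Pluripotency genes as a group showed no gain by D3. Of 40 genes found, 26 were marked in both with a median log2 change of -0.25 and 10 in neither, and the numbers marked in D0 only and in D3 only were both 2. Nanog, a core pluripotency factor, had no promoter peak in D0, D3 or D6T-, and had 67.7 in D9T- and 263 in iPSCs. Within 50 kb, 2 distal peaks had Nanog as the nearest gene on each day, with summed scores of 101 in D0 and 61.9 in D3. All 10 unmarked genes were marked in iPSCs and 3 of them in D6T-, beside 6.07% and 2.72% of all genes marked in neither. Tdgf1, a Nodal co-receptor, had a D3 peak of 10.3 and none in D0, and it reached 220 in iPSCs. Gbx2 had 16.7 in D3 and 0 in D0, but its joined region changed by -0.03. Dppa3, a maternal factor also called Stella, had 10.4 in D0 and Lefty2, a Nodal inhibitor, 24.6, with no D3 promoter peak at either, although the joined region of Lefty2 changed by -0.43. The member that rose was Otx2, a homeobox factor of the primed state (25.5 to 50.9, log2 1.00, counting interval 0.58 to 1.41), and the member that fell was Sox15 (22.9 to 7.92). Sall4, a zinc finger factor, went from 109 to 86.1 and reached 350 in D6T-.

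Of 44 epithelial genes, 40 were marked in D0, beside 66.0% of all genes, and the same 40 were marked in both libraries, with a median log2 change of -0.21, and 27 of the 40 lay above the all-gene median. The members that rose were Perp, a desmosome component and p53 target (71.9 to 165, log2 1.20, counting interval 0.96 to 1.44), and Pkp1, the desmosomal plakophilin (30.1 to 60.7, 1.01). They were 2 of the 40, against 0.74% of all genes. Their peaks were longer in D3, and per kb they changed by -0.03 and -0.04. Cdh1, the gene of E-cadherin, went from 74.6 to 82.9 (0.15, counting interval -0.12 to 0.42) and Epcam from 92.8 to 71.8. F11r, a tight junction adhesion molecule, went from 97.9 to 156 (0.68, or 0.53 by joined region and -0.38 per kb) and the keratin Krt19 from 47.6 to 72.0 (0.60), both short of the limit for a rise. Tjp3, a tight junction scaffold, was marked in D3 only with 25.1.

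By score, the marked genes of the delivered factors did not fall. Myc went from 622 to 643 (log2 0.05) and Klf4 from 376 to 457 (0.28), while Sox2 went from 121 to 321 (1.41, counting interval 1.23 to 1.59). Pou5f1, which encodes Oct4, had no promoter peak on either day. The input libraries were not level at these genes. Input tags per kb within the peaks went from 2.64 to 6.00 at Myc, from 2.57 to 5.85 at Klf4 and from 3.10 to 7.34 at Sox2, whereas the median of all promoter peaks went from 3.17 to 3.37. In the ratio of D3 to D0 input these genes ranked 155, 152 and 121 of 14324. Fold over input fell by 1.08 on the log2 scale at Myc and by 0.67 at Klf4, and rose by 0.55 at Sox2. The median change in fold over input was -0.26 for all genes marked in both. In peak lists, tags of the endogenous and the delivered copies of these genes cannot be told apart, and the part of this input in the H3K4me3 values was not tested.

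By summed score, ribosome biogenesis genes stood on the other side of the median. All 19 ribosome biogenesis genes were marked in both libraries and 19 of 19 lay above the all-gene median, with a median log2 change of 0.05, although 0 passed the limit for a rise. Npm1, the nucleolar protein nucleophosmin, went from 332 to 427 (0.36) and Ncl, nucleolin, from 354 to 437 (0.30). Dkc1, a pseudouridine synthase, went from 119 to 145 (0.29) and Wdr12, a ribosome assembly factor, from 331 to 283 (-0.22). Per kb the median of this list was -0.14, beside -0.17 for all genes. Cell cycle genes had a median of -0.38, with 17 of 27 below the all-gene median, glycolysis genes one of -0.24, and housekeeping genes one of -0.23. Genes of AP-1 subunits had -0.31, p53 and senescence genes -0.23 and H3K4 methylation enzymes -0.21. Inflammatory signalling genes had -0.44 and germ layer regulators -0.48. Hox genes had -0.55, or -0.40 by joined region. In the Hox list 9 of 38 fell by the summed score but 0 by joined region, and Hoxb1 was marked in D3 only with 20.4.

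**Figure D3:**
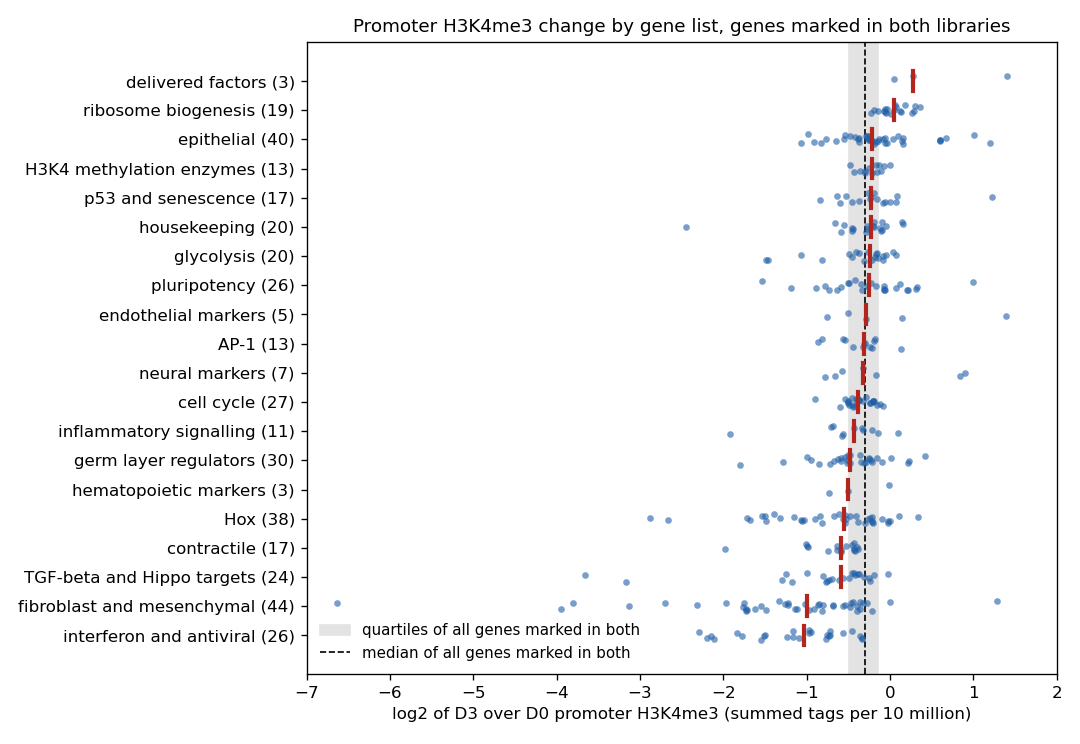
Log2 of D3 over D0 promoter H3K4me3 (summed tags per 10 M) for genes marked in both libraries, 1 point per gene, by gene list with the number of genes in brackets; the dashed line and grey band are the median and quartiles of all such genes. Interferon genes (median -1.03) and fibroblast genes (-1.0) lie to the left of the band and ribosome biogenesis genes (0.05) to its right.

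The loss of distal peaks differed between the gene lists. Each distal peak within 50 kb of a protein-coding start was given to the nearest gene. For all genes 61.5% of 18249 such D0 peaks had no D3 partner. Near fibroblast genes it was 97 of 123 (78.9%, interval 70.8 to 85.1) and near contractile genes 41 of 56 (73.2%). Near ribosome biogenesis genes it was 9 of 12 (interval 46.8% to 91.1%) and near endothelial markers 10 of 14 (71.4%, 45.4 to 88.3). Near pluripotency genes it was 14 of 43 (32.6%), near Hox genes 11 of 40 (27.5%) and near germ layer regulators 22 of 95 (23.2%). Col5a1, a collagen V chain, had 10 D0 distal peaks and Tpm1, a tropomyosin, 9, and none of them had a D3 partner. Sept9, a septin, lost 26 of 30, Smad3, a TGF-beta signal transducer, 13 of 16, and Lrp1, an endocytic receptor, 11 of 12. On the other side Actn4, an alpha-actinin, gained 7 and Lats2, a Hippo kinase, gained 5 where it had 0 in D0. Peaks near the same gene are not independent of each other. The lists were also not matched for peak score, with which the losses varied. The 123 D0 peaks near fibroblast genes had a summed score of 1866, and the 95 near germ layer regulators one of 3081. For the 12 near ribosome biogenesis genes it was 113, and for the 40 near Hox genes 1381. The part of peak score in the differences between lists was not tested.

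The distal peaks with the highest scores are given with the nearest protein-coding start. In D3 only, an intergenic peak at chr3:65447163-65451495 had a score of 130, 18.7 kb from the start of Lekr1, and reached 499 in D6T- and 433 in D9T- before 26.0 in iPSCs. A peak at the start of another transcript, 44.7 kb from Zmynd8, a chromatin reader, had 122 and had 237 in iPSCs. Intergenic peaks near Stxbp5 (103), Trim43b (103) and Gm9775 (90.0) had no overlapping peak in iPSCs. In D0 only, the strongest was a gene-body peak near Zcchc24 with a score of 123. The peak on the side of Thy1, a stretch of which is printed above, had 115 and was absent from each later H3K4me3 library. A peak at another transcript near Hic1, a growth-suppressing zinc finger gene, had 103 and was absent as well. Peaks near Hspg2, the basement membrane proteoglycan perlecan, and Pcdhgc5, a protocadherin, had 94.5 and 91.7, and the Hspg2 peak had 70.5 in D9T-.

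Lost and gained marks lay on CpG-poor DNA. In the central 1 kb of promoter peaks the median ratio of observed to expected CpG was 0.64 for D0 peaks kept in D3, 0.26 for those in D0 only and 0.28 for those in D3 only. At scores of 20 to 50 the values were 0.50, 0.25 and 0.36. The letters of known motifs were then counted on both strands. They were TGANTCA (AP-1), ATGCAAA (octamer, 7 of its letters), CACGTG (E-box), GGGNGTG (Klf), CCGGAAG (Ets) and the interferon letters given above. Among distal peaks with scores of 20 to 50, the AP-1 letters were in 50.8% of 1434 D0-only peaks (interval 48.3 to 53.4), in 32.8% of 3815 kept peaks (31.3 to 34.3) and in 30.6% of 108 D3-only peaks (22.7 to 39.8). Of all distal peaks they were in 42.6% in D0 and 31.6% in D3. The octamer letters were in 26.9% of the D3-only peaks (19.4 to 35.9), in 685 of the 3815 kept and in 16.1% of D0-only peaks, beside 18.4% of all D3 distal peaks. The sets also differed in CpG content, and they were not matched for it. Among promoter peaks of these scores the AP-1 letters were in 38.7% of 119 D0-only (30.4 to 47.6), 4 of 19 D3-only and 20.3% of 1098 kept peaks.

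**Figure D4:**
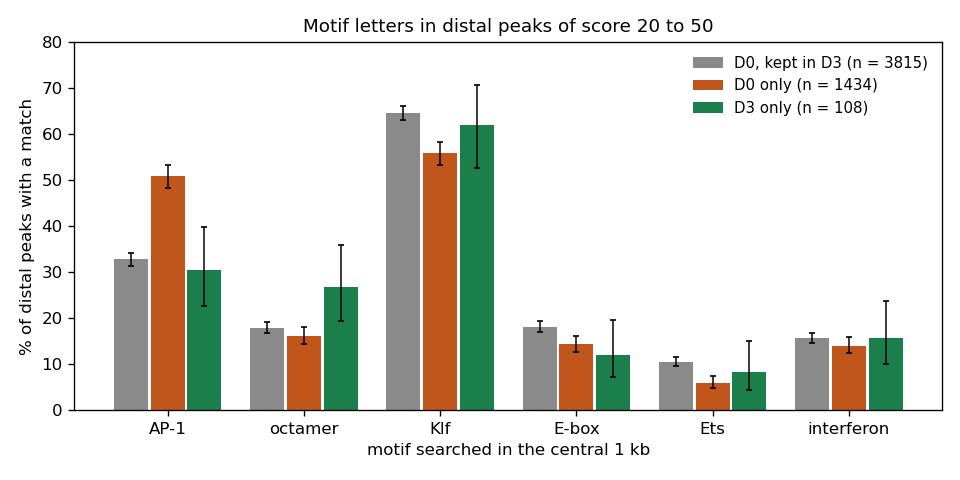
Percent of distal H3K4me3 peaks with scores of 20 to 50 whose central 1 kb holds the letters of each motif, for D0 peaks kept in D3, D0-only and D3-only peaks; bars on the columns are 95% Wilson intervals. The AP-1 column of D0-only peaks stands at 50.8% against 32.8% for kept peaks, and the octamer column of D3-only peaks at 26.9% against 16.1% for D0-only peaks.

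Marks gained by D3 were more often found in D6T- than marks lost by D3. Of the 145 D3-only genes, 63.4% had promoter H3K4me3 in D6T- (interval 55.4 to 70.8), and 37.2% had it in iPSCs (29.8 to 45.3). On the way, the D9T- library had 43.4% of them and the D12S+ library 35.9%. Of the 447 D0-only genes, 181 were marked in D6T- (40.5%) and 28.9% in iPSCs (24.9 to 33.2), with 34.7% in the D9T- and 23.3% in the D12S+ library. The Wilson intervals of these groups overlapped in D9T- and in iPSCs. Genes marked in neither had 2.72% in D6T- and 6.07% in iPSCs. The letter T stands for Thy-1 and S for SSEA-1, a surface antigen of pluripotent cells, by which the later cells were sorted, while D3 was unsorted. The D16S+ library had 3.71% of its tags in peaks. Of distal peaks, 82.8% of those shared by D0 and D3 were found in D6T-, 49.0% of the D3-only and 19.4% of the D0-only peaks. In iPSCs the shares were 46.7%, 13.6% and 7.68%.

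**Figure D5:**
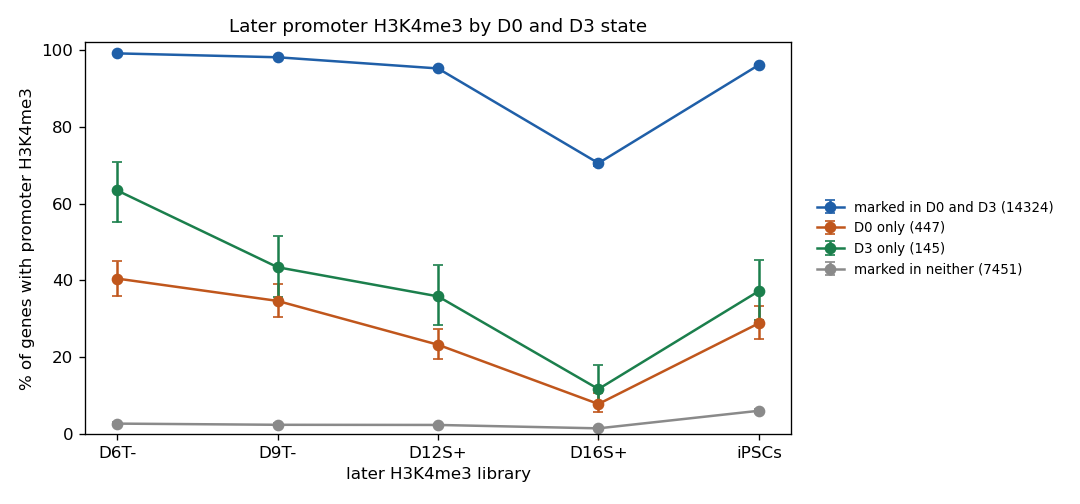
Percent of genes with promoter H3K4me3 in later libraries (horizontal axis, in order of day and then iPSCs), for genes marked in D0 and D3, in D0 only, in D3 only and in neither, with the number of genes in brackets; bars are 95% Wilson intervals. D3-only genes start at 63.4% and D0-only genes at 40.5% in D6T-, and all groups are lowest in D16S+.

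Other marks of the same days were read over the same genes, as measures that did not enter the choice of genes. H3K36me3, which is laid down in the bodies of transcribed genes, covered any part of 48.2% of all genes in D0 and 43.1% in D3. At genes whose promoter H3K4me3 fell the share went from 59.0% to 39.2%, with 70 genes losing and 4 gaining H3K36me3, and the covered kb fell to 0.285 of D0 against 0.549 for all genes. D0-only genes went from 26.0% to 17.7%, and their covered kb fell to 0.460 of D0. D3-only genes went from 7.59% to 9.66%, or from 11 to 14 of 145 genes, with 3 losing and 6 gaining H3K36me3. The covered kb of H3K36me3 at D3-only genes fell to 0.736 of D0. Adh7 had 0 kb of H3K36me3 in D0 and 3.79 kb in D3, whereas Samd9l went from 5.82 to 0.500 kb and Il1rl1 from 10.0 to 0.627 kb. For the histone variant H3.3, D0-only genes went from 56.2% to 39.6% with a peak and D3-only genes from 32.4% to 36.6%, while all genes went from 57.9% to 53.4%. The covered kb of H3.3 was 0.271 of D0 at genes that fell and 1.06 at D3-only genes, against 0.657 for all genes.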

How the data were processed

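H3K4me3 ChIP-Seq of D0 and D3 was used, with 1 library per day, and the later H3K4me3 lists and the H3.3 and H3K36me3 lists of D0 and D3 served as further readouts. The authors mapped reads to mm9 with STAR, removed reads with more than 2 mismatches or more than 1 place in the genome, and called peaks per library with the histone style of HOMER findPeaks against input, without pooling. Tool versions are not given in the sources used here. The deposited peak score is a signal, the normalized tag count per 10 M tags, not divided by length and without subtraction of input. The deposited fold over input is a ratio of at least 4, and the p-value that the authors computed against input with a Poisson model has a limit of 0.0001 and is unadjusted.

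Peaks were placed on protein-coding transcripts of GENCODE vM1, on the same build, with Python 3.11.15, pandas 2.3.3, numpy 2.4.6 and scipy 1.17.1. Peaks on unplaced sequences, 70 in D0 and 60 in D3, were left out. Peaks sharing 1 bp were partners. A gene was marked where a peak touched 1 kb on either side of a start, and its value was the sum of those peaks. With 1 library per day, called means a change of more than 2-fold beyond the median, and no p-value is given. The interval of a single gene's change is an exact binomial interval of its tags at 95% confidence, and floors stand for 3 counts. Both cover counting error only. The overlap and summing steps were tested on simulated peaks.

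The members and gene lists were chosen with earlier results of these data known. Named genes were the 10 highest sums in D3 only and in D0 only that also held with equal numbers of top peaks and 1 kb of slack, the 8 largest rises and falls among strong promoters, the 5 highest distal peaks per day, the delivered factors, Nanog, Thy1 and Cdh1, and up to 4 members per list. Joined regions, the strong promoters changed by both measures, the genes with the most distal changes, single genes named beyond those 4, the genes of the printed sequences and the readings of later libraries were chosen after the data were seen. Alternatives covered the number of peaks, the fold over input, the promoter window, the overlap, the chromosomes and the length scaling. Of the gene lists, 1 member each of the pluripotency, germ layer, hematopoietic and neural lists was not matched and is not analysed here.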

Additional observations from a re-analysis of the deposited data

How the results depend on the processing

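The share of peaks without a partner was larger for distal than for promoter peaks under every alternative tried, and the median change of genes marked in both stayed below 0. Of 59 values computed under alternatives, 18 moved by less than their counting interval or, for counts, by less than 1.5 times, and 41 moved further. Shares and counts carry no sign, so only the median change could have reversed. With equal numbers of top peaks the promoter share without a partner was higher in D3 than in D0, against the main order. With promoters set by the peak midpoint, D3-only genes outnumbered D0-only genes, also against the main order. With equal numbers of top peaks by score, the shares without a partner were 2.45% for D0 promoter, 41.9% for D0 distal, 2.88% for D3 promoter and 38.0% for D3 distal peaks, with 257 D0-only and 236 D3-only genes. With equal numbers by score per kb they were 2.45%, 43.4%, 3.17% and 39.4%, with 266 and 265 genes. Equal numbers set losses and gains close to each other by construction. At a fold over input of at least 8 the shares were 7.78%, 64.0%, 2.47% and 46.2%, with 881 and 225 genes and a median log2 change of -0.29.

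With promoters reaching 2.5 kb, promoter shares were 8.79% in D0 and 3.83% in D3. With promoters set by the peak midpoint, from 1000 bp before to 100 bp after a start, the shares were 6.25%, 47.3%, 2.46% and 19.4%, with 1221 and 1239 genes and a median of -0.29. With the outermost start of each gene only, they were 3.38%, 60.2%, 1.31% and 28.4%. Where sharing needed 50% of a peak to be covered, they were 7.68%, 69.1%, 2.63% and 34.6%, and where peaks within 1 kb counted as shared, they were 4.38%, 59.4%, 1.63% and 25.6%. Per kb of peak the median was -0.17. Apart from the peak number and the midpoint rule, whose construction sets these counts, the cause of a shift was not tested. No paired analysis was possible because each day has 1 library and no comparison of replicates was made. A peak of the median lost distal score stands on few tags, so most single distal losses and gains are near the limit of detection, and no difference between days can be separated from a difference between 2 libraries.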

Other observations

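Markers of further cell types differed in how many were marked. Of all 22367 genes, 7451 had no promoter peak in either library and 14324 had one in both, of which 0.74% rose. Of 10 endothelial markers, 4 had no promoter peak, among them Cdh5, the adherens junction cadherin of endothelium, and Pecam1 was marked in D0 only. Tek, an angiopoietin receptor, went from 18.8 to 49.4 (log2 1.39, counting interval 0.94 to 1.87) and had 177 in D6T- and no peak in iPSCs. Of 9 skeletal muscle markers, 6 were unmarked, including Myog, and Actc1, cardiac actin, was marked in D3 only with 7.08. Of 9 neural markers found, 7 were marked in both and 2 of them rose, namely Tubb3, a neuronal tubulin (52.2 to 93.2), and Stmn2, a microtubule regulator (78.7 to 147). Per kb they changed by -0.32 and -0.19.

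The X chromosome lost fewer distal peaks than the autosomes. On X, 148 of 329 D0 distal peaks had no D3 partner (45.0%, interval 39.7 to 50.4), while single autosomes ranged from 59.5% to 66.0%. Of D3 distal peaks on X, 15.8% of 221 had no D0 partner, and single autosomes ranged from 26.7% to 33.5%. Promoter peaks on X were without a partner in 4.12% of 485 in D0 and 1.28% of 470 in D3, close to the shares of all promoter peaks. X was singled out after these values were seen.

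The change of H3K4me3 by joined region varied with the length of the D0 promoter peaks. The median log2 change was -0.07 for 317 genes under 1 kb, -0.32 for 2893 genes with 1 to 2 kb, -0.27 for 7665 genes with 2 to 4 kb, -0.34 for 3044 genes with 4 to 8 kb and -0.46 for 405 genes above 8 kb. D0 length is part of the D0 value that enters the change. Within the gene lists, interferon genes with H3.3 went from 28 to 16 of 35 and fibroblast genes from 43 to 35 of 46, and ribosome biogenesis genes were at 19 of 19 on both days, beside 57.9% and 53.4% of all genes. Fibroblast genes with H3K36me3 went from 40 to 37 of 46, beside 48.2% and 43.1% of all genes.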
